A study of Mus musculus with 2 samples.

Results

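The genes followed here belong to the interleukin-1 (IL-1) and NF-kB response in mouse bone marrow: the cytokine Il1b, its receptor antagonist Il1rn, the decoy receptor Il1r2, the co-receptor Il1rap, the NF-kB inhibitors and regulators Nfkbia, Nfkbiz and Tnfaip3, and the chemokines Cxcl2 and Ccl6. These 9 genes were taken by symbol from the 32285 genes listed in the count tables, and all 9 had counts in both libraries. Bone marrow was profiled by droplet-based 3′ single-cell RNA sequencing in 2 libraries, 1 from control (Ctrl) and 1 from Map4k4-cko (cKO) mice. Both came from mice 13 to 14 weeks old, and in each 2 parts of cells enriched for c-Kit were mixed with 3 parts of whole marrow. In the cKO mice a floxed Map4k4 gene, which encodes a kinase, was deleted by Mx1-Cre after injection of poly I:C, an inducer of interferon, and Mx1-Cre acts in many interferon-responsive cells besides blood stem cells. The study's methods name the controls as Mx1-Cre littermates on the same C57BL/6 background, but write their genotype as Map4k4-/- as well, which could not be settled here. Whether controls also received poly I:C, and how many mice gave each library, is not given in the sources used here. No IL-1 or bacterial stimulus is named.

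IL-1β is made as a precursor that inflammasome caspases cut into the active cytokine, which signals through a receptor pair that includes the product of Il1rap. The antagonist encoded by Il1rn and the decoy receptor encoded by Il1r2 both hold that signal back. Signalling frees NF-kB from its inhibitor IκBα, the product of Nfkbia, and NF-kB then raises transcription of Nfkbia itself, of Tnfaip3, which encodes the ubiquitin-editing enzyme A20, of Nfkbiz, which encodes the nuclear co-regulator IκBζ, and of chemokines such as Cxcl2, which attracts neutrophils through Cxcr2. Ccl6 is a CC chemokine of rodents that signals through Ccr1. Neutrophils mature in the marrow from proliferating progenitors (proNeu, preNeu) through non-dividing immature cells (imNeu) to mature cells (mNeu). The mature cells carry much of the Il1b RNA of marrow.

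On GRCm38, as annotated by GENCODE vM21, Il1b lies on chromosome 2 from 129364570 to 129371139 on the minus strand and Il1rn on the same chromosome from 24336853 to 24351494 on the plus strand. Il1r2 lies on chromosome 1 from 40074079 to 40125231, beside the targeted gene. Il1rap lies on chromosome 16 from 26581704 to 26730117 and Nfkbiz on the same chromosome from 55811375 to 55838899. Nfkbia lies on chromosome 12 from 55489410 to 55492647, Tnfaip3 on chromosome 10 from 19000910 to 19015657, Cxcl2 on chromosome 5 from 90903871 to 90905938 and Ccl6 on chromosome 11 from 83587882 to 83593087. GENCODE places another gene over Il1b, Il1r2, Il1rap and Ccl6, on the opposite strand in each case and for Il1r2 on the same strand too, and whether the counting used strand is not given in the sources used here.

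Promoter sequence was read for 8 of the 9 genes from RefSeq windows on GRCm38.p6, each running from 250 bases before to 50 bases after an annotated start. Nfkbiz was not in that table. The Tnfaip3 stretch shown lies inside the gene as GENCODE places it, which reaches to 19015657 on the minus strand. The Il1r2 window, from 40085843 to 40086142, also lies inside its GENCODE gene, so the sequence before that gene's GENCODE start was not read. The 4 stretches shown are those of the gene that differed most between the libraries in mature cells (Cxcl2), of 2 classical feedback targets of NF-kB (Nfkbia and Tnfaip3) and of Il1b for contrast. Capitals mark matches to the NF-kB consensus (kappaB site) on either strand in the first 3 and the letters TATAAA in Il1b.
Cxcl2, chr5:90903761-90903870, plus strand: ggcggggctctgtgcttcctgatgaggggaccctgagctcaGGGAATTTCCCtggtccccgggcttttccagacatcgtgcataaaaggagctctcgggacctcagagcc
Nfkbia, chr12:55492648-55492757, minus strand: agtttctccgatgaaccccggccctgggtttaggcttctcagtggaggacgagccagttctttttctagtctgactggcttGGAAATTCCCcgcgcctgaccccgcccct
Tnfaip3, chr10:19015411-19015440, minus strand: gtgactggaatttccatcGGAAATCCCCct
Il1b, chr2:129371140-129371249, minus strand: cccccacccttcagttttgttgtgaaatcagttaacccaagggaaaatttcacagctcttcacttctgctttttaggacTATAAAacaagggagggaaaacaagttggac

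A kappaB match was present in windows of 3 of the 8 genes, Cxcl2, Nfkbia and Tnfaip3. Of all 32851 mouse promoter windows of this length, 8.46% held one. The 8 genes had 11 windows, and the shares over all windows given here are per window rather than per gene. In Cxcl2 the match began 97 bases before the RefSeq start and was found on both strands with an offset of 1 base, and in Nfkbia it began 29 bases before the start. Tnfaip3 had 2 matches, 125 and 12 bases before the start of its first window. A match to TGANTCA, the letters bound by AP-1, was present in windows of Il1rn and Tnfaip3 and in 7.81% of all windows, and TATAAA in 13.6% of them. These matches describe letters in the windows only.

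Depth was read from UMIs (unique molecular identifiers, which tag single captured RNA molecules), of which Ctrl had 71527701 over 10220 barcodes and cKO 64393950 over 6872. After filters on detected genes and mitochondrial RNA, 9965 Ctrl and 6718 cKO cells were kept, and 82.9% and 75.5% of them entered exactly 1 marker gate. A gate keeps cells by the share of their UMIs from fixed marker lists, so each name below stands for cells like that type in those markers. In the 9 main gates every marker of the gate's own list was higher inside than in the other gated cells, except Fcnb in imNeu of both libraries and Csf3r in late imNeu of cKO. Stfa2l1 in late imNeu of cKO was nearly level, at 199.07 and 198.76 CPM. The gates use the summed share of these same markers, so this is no independent check of the names. Of the barcodes, 3010 occurred in both libraries, 43.8% of those in cKO. Barcodes gated in both libraries had the same gate in 12.2% of pairs, against 11.6% over all pairs of cells. Without the shared barcodes 58 of 73 member ratios stayed within their counting interval, 15 left it and 8 changed sign. Map4k4 had 5176 UMIs (72.6 CPM, counts per 1000000 UMIs) in the kept cells of the library labelled Ctrl and 4132 UMIs (64.3 CPM) in those of the library labelled cKO, so every direction below rests on the labels. The paper reports, from RT-PCR, that stem and progenitor cells lost the Map4k4 transcript once poly I:C was given. In the gate of stem and multipotent progenitor cells (HSC/MPP) Map4k4 had 547 UMIs (136 CPM) in Ctrl and 211 UMIs (129 CPM) in cKO. The log2 ratio of cKO over Ctrl there was -0.08 (-0.32 to 0.15). Whether the 3′ counts used here cover the deleted part of the gene was not tested. With 1 library per condition there is no replicate check. No test was made between conditions, and every 95% interval (exact Poisson for CPM, exact binomial for shares and ratios) covers counting error only. The libraries differed in depth per cell, and within a gate fewer expressing cells and less RNA per cell were separated only where shares of cells are given.

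The neutrophil gates held between 47.0% (Tnfaip3) and 90.1% (Il1rn) of a gene's UMIs in Ctrl and between 73.4% (Tnfaip3) and 96.6% (Il1b) in cKO, and 7 of the 9 genes had their highest CPM among the 9 main gates in late mNeu in both libraries. Late mNeu were cells with a high summed share of mature markers, among them Retnlg, and few UMIs of secondary-granule genes. There were 1172 such cells in Ctrl and 733 in cKO. Single markers went different ways from early to late mNeu. Mmp8 fell from 3639 to 1849 CPM in Ctrl and from 3713 to 2511 in cKO. Csf3r rose from 839 to 2543 CPM in Ctrl and from 666 to 2048 in cKO. The exceptions by point value were Nfkbia, which was highest in imNeu of Ctrl and preNeu of cKO, and Tnfaip3, which was highest in HSC/MPP. Intervals overlapped, however, between imNeu and preNeu of Ctrl for Nfkbia. For Tnfaip3 that of HSC/MPP overlapped imNeu in Ctrl and late imNeu in cKO. The gate limits were set with the Il1b level of such cells in view, so the level there is a description.

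**Figure D1:**
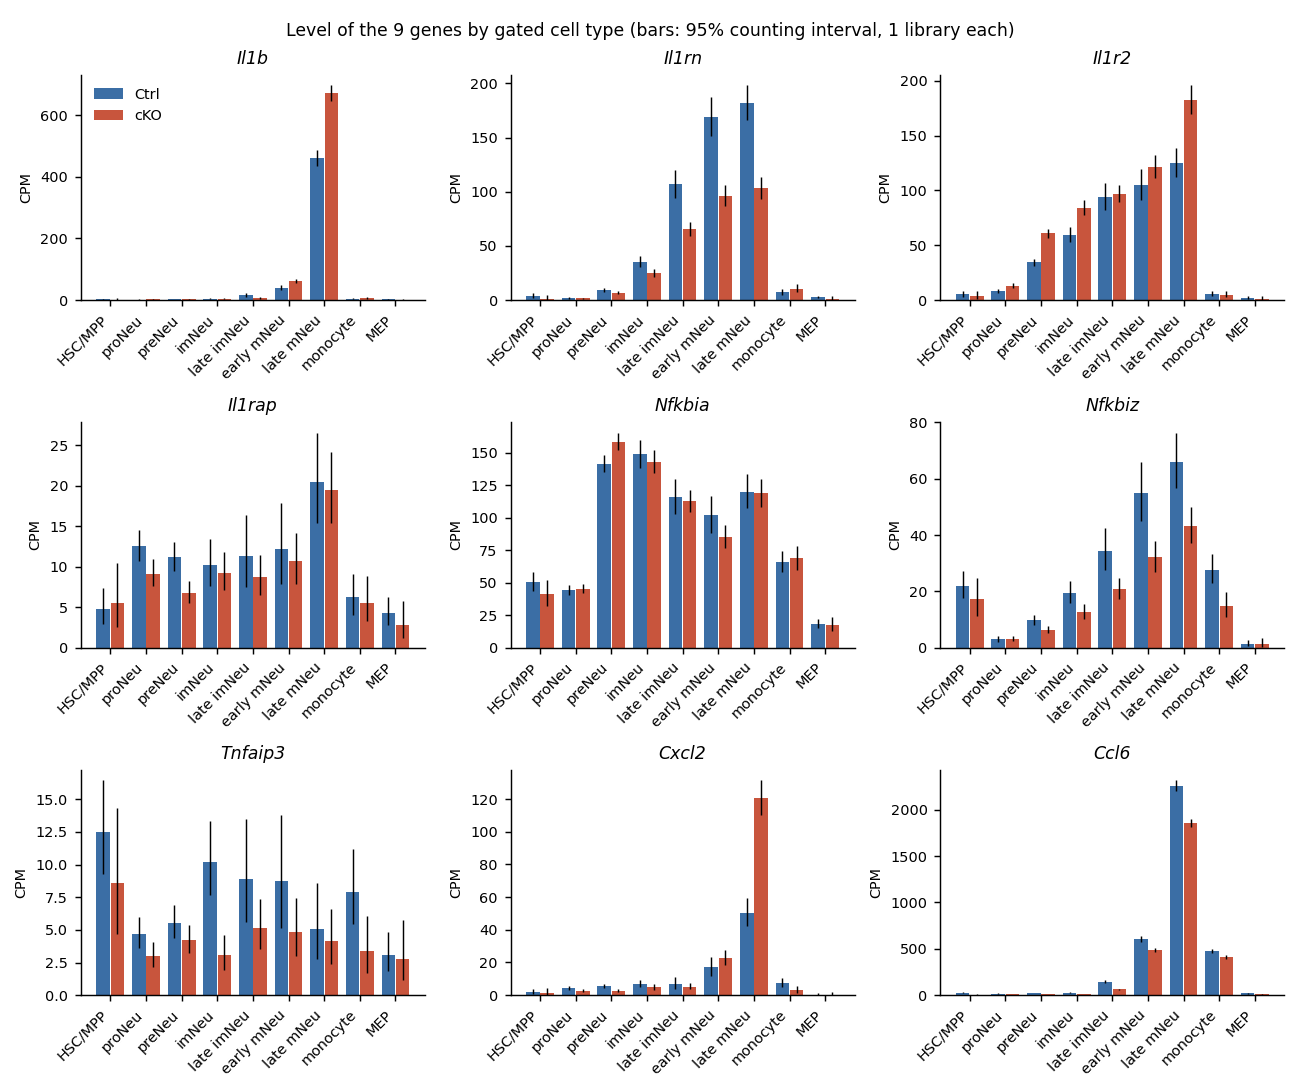
Level of each gene (y axis, CPM of summed UMIs) in 9 gated cell types (x axis) of the Ctrl and cKO library, with bars for the 95% counting interval. Il1b, Cxcl2 and Ccl6 stand out in late mNeu, Il1rn and Il1r2 climb over the neutrophil stages, and Nfkbia is high from preNeu on.

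Il1b was low up to imNeu, was present in early mNeu and was by far the highest in late mNeu. Its level in Ctrl was 2.00 CPM in HSC/MPP, 1.54 in proNeu, 3.06 in preNeu, 3.47 in imNeu, 16.2 in late imNeu, 40.2 in early mNeu and 460 CPM (435 to 486) in late mNeu. In cKO the same gates held 1.83, 2.30, 2.56, 3.73, 6.34, 62.0 and 672 CPM (647 to 697). Late mNeu carried 75.0% of all Il1b UMIs of the kept Ctrl cells and 84.4% of those of cKO. Monocytes, a classical source of IL-1β after stimulation, held 4.95 CPM in Ctrl and 6.80 in cKO.

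Free RNA from broken cells also enters droplets, and within a library 1 source of it keeps its genes in 1 ratio. For every 1000 UMIs of the neutrophil gene Retnlg there were 15.2 Il1b UMIs in late mNeu of Ctrl, 1.24 in early mNeu, 14.5 in MEP (megakaryocyte and erythroid progenitors), 8.31 in HSC/MPP and 26.1 in monocytes. In cKO these values were 18.0, 1.63, 5.60, 8.09 and 35.5. The values of MEP and HSC/MPP lay between those of the mature gates, and no expression is read from Il1b there.

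Within late mNeu the Il1b RNA was unevenly spread. After random thinning of every cell to 1000 UMIs, without the 103 cells of Ctrl and 12 of cKO that were shallower, 28.1% (25.4 to 30.9) of Ctrl and 37.7% (34.2 to 41.4) of cKO cells had an Il1b UMI. Without thinning the shares were 38.9% and 64.9%, at median depths of 2034.5 and 5398 UMIs per cell. In thinned MEP, which should lack the gene, the share was 0.617% in Ctrl at an unthinned median depth of 13800 UMIs, and in cKO it was 0 of 69 cells at 27599.5 UMIs, which allows a share of up to 4.35% if 3 cells are taken as the limit of a count of 0 and 5.21% by the exact binomial interval. The tenth of late mNeu with most Il1b held 57.9% of its UMIs in Ctrl and 45.9% in cKO. After thinning, 4.49% of Ctrl and 5.13% of cKO cells held 4 or more Il1b UMIs, while 14.2% and 21.5% held exactly 1. The libraries thus differed more in the share of cells with 1 UMI than in the share with 4 or more.

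Il1rn rose earlier and over more stages than Il1b. In Ctrl it had 9.03 CPM in preNeu, 35.2 in imNeu, 107 in late imNeu, 169 in early mNeu and 182 CPM (166 to 198) in late mNeu. In cKO the same gates had 6.96, 25.1, 65.7, 96.0 and 103 CPM (93.6 to 113). Early and late mNeu did not differ beyond their intervals in either library, while the steps between the earlier gates did. In late mNeu Il1rn rested on 498 UMIs in Ctrl and 425 in cKO.

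Il1r2, which encodes the decoy receptor, was present from proNeu on. Its level in Ctrl was 8.20 CPM in proNeu, 34.5 in preNeu, 59.7 in imNeu, 94.2 in late imNeu, 105 in early mNeu and 125 CPM (112 to 139) in late mNeu. In cKO it was 13.1, 61.0, 84.3, 97.0, 122 and 182 CPM (169 to 196). In Ctrl late mNeu overlapped early mNeu and early mNeu overlapped late imNeu, while in cKO each of these steps was apart and imNeu overlapped late imNeu. Il1r1, the signalling receptor, showed the opposite distribution, with 25.2 CPM in HSC/MPP of Ctrl and 39.7 in cKO but 0 UMIs in late mNeu of both libraries, where 3 counts would be 1.09 CPM in Ctrl and 0.728 in cKO. Il1rap, the co-receptor, was low throughout. It held 12.5 CPM in proNeu, 11.1 in preNeu and 20.4 (15.4 to 26.5) in late mNeu of Ctrl, and 9.13, 6.75 and 19.4 (15.4 to 24.2) in cKO.

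Nfkbia was found in each of the 9 main gates. It went from 44.2 CPM in proNeu to 142 CPM (135 to 148) in preNeu of Ctrl and from 45.3 to 159 CPM (152 to 165) in cKO, and stayed between 85.4 and 149 CPM in the later neutrophil gates of both libraries. In Ctrl, where lymphoid gates were large enough, B cells (132 CPM), T/NK cells (112 CPM) and early B cells (98.9 CPM) overlapped late mNeu in their intervals. MEP had 18.5 CPM in Ctrl and 17.6 in cKO, and erythroblasts of Ctrl had 7.99 CPM.

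Nfkbiz and Tnfaip3 went different ways in the lineage. Nfkbiz was higher in HSC/MPP (22.0 CPM in Ctrl and 17.1 in cKO) than in proNeu (2.93 and 3.19), then climbed to 66.0 CPM (56.7 to 76.3) in late mNeu of Ctrl and 43.2 CPM (37.1 to 50.04) in cKO. Tnfaip3 had 12.5 CPM in HSC/MPP and 5.10 in late mNeu of Ctrl, and 8.56 and 4.13 in cKO. Among Ctrl gates with at least 50 cells and more than 3 Tnfaip3 UMIs its highest levels were in pDC (plasmacytoid dendritic cells, 29.0 CPM), T/NK (27.3), B (23.6) and early B (21.9), which overlapped each other. In late mNeu only 14 Tnfaip3 UMIs were counted in Ctrl and 17 in cKO, where 3 UMIs would be 1.09 and 0.728 CPM.

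The chemokines were both highest in late mNeu. Cxcl2 had 50.3 CPM (42.3 to 59.4) there in Ctrl and 120 CPM (110 to 131) in cKO, 17.0 and 22.7 CPM in early mNeu, and at most 7.18 CPM in any other main gate. Ccl6 had 2261 CPM (2205 to 2318) in late mNeu of Ctrl and 1860 (1818 to 1902) in cKO, 606 and 490 CPM in early mNeu, and 481 and 411 CPM in monocytes. In thinned cells 80.7% of late mNeu and 40.5% of monocytes of Ctrl had a Ccl6 UMI, against 4.32% of MEP. Cxcl2 was found in few cells: 3.93% (2.85 to 5.27) of thinned late mNeu in Ctrl and 6.66% (4.95 to 8.73) in cKO had a UMI, and single unthinned cells held up to 8 and 46 UMIs of it. Outside these gates Ccl6 lay between 17.1 and 25.0 CPM in HSC/MPP, proNeu, preNeu, imNeu and MEP of Ctrl and between 6.72 and 12.7 CPM in those of cKO, while early B cells of Ctrl had 19.6 CPM and erythroblasts 17.8 CPM, so it is read as background there.

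The comparison of cKO with Ctrl within a gate asks whether these genes differ between the libraries in cells within the same marker limits. The gate markers themselves differed between the libraries, so the stage need not be the same. In late mNeu Asprv1 had 368 CPM in Ctrl and 1177 in cKO, while Csf3r had 2543 and 2048. Il1b, Cxcl2 and Il1r2 were higher in cKO in late mNeu, and Il1rn, Nfkbiz and Ccl6 were lower by CPM, of which Ccl6 turned higher under median-of-ratios scaling (0.19). Nfkbia, Il1rap and Tnfaip3 had intervals that held 0 there. CPM ratios of all genes were shifted down, however, with a median log2 ratio of -0.47 in late mNeu, -0.45 in early mNeu, -0.46 in late imNeu, -0.42 in imNeu, -0.38 in preNeu, -0.28 in proNeu, -0.21 in monocytes, -0.16 in MEP and -0.12 in HSC/MPP, over genes with at least 20 UMIs in both libraries together. In late mNeu the intervals of Il1b, Il1r2, Cxcl2, Nfkbia and Ccl6 lay above that median and that of Il1rn below it, while the interval of Nfkbiz held it. In that order the first 5 exceeded 96.2%, 96.2%, 99.0%, 82.1% and 64.4% of genes, and Il1rn exceeded 27.6%. How many of all genes had intervals clear of the median was not counted. Intervals narrow as UMIs rise, so this is no result about the members as a set.

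Few member values passed 2-fold in CPM. In late mNeu 1 of 9 was higher, Cxcl2, against 1.49% of 8281 genes, and 0 of 9 were lower, against 20.4%. Genes lower in cKO numbered 1 of 9 in preNeu (Cxcl2), against 9.87% of all genes, 1 of 9 in imNeu (Tnfaip3), against 15.6%, and 2 of 9 in late imNeu (Il1b and Ccl6), against 16.2%. Cxcl2 in preNeu stayed past 2-fold under 7 of 12 alternatives, Il1b in late imNeu under 8 and Ccl6 there under 9, and median-of-ratios scaling took each of them under it. The 12 include changes of the UMI floor, which could not alter these ratios and so count as passed. Neither proNeu, against 4.80%, nor early mNeu, against 16.7%, had a member past 2-fold in either direction. In monocytes 2 of 9 were lower (Tnfaip3 and Cxcl2), against 6.57%, and 0 were higher, against 0.904%. Of the members with at least 20 UMIs, 1 of 6 was lower in HSC/MPP (Ccl6), against 4.33%, and 2 of 5 in MEP (Il1b and Ccl6), against 7.66%. Those of MEP and HSC/MPP are levels from which no expression is read here, and Il1b in MEP rested on 18 and 2 UMIs with an interval that held 0 (-5.02 to 0.19).

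**Figure D2:**
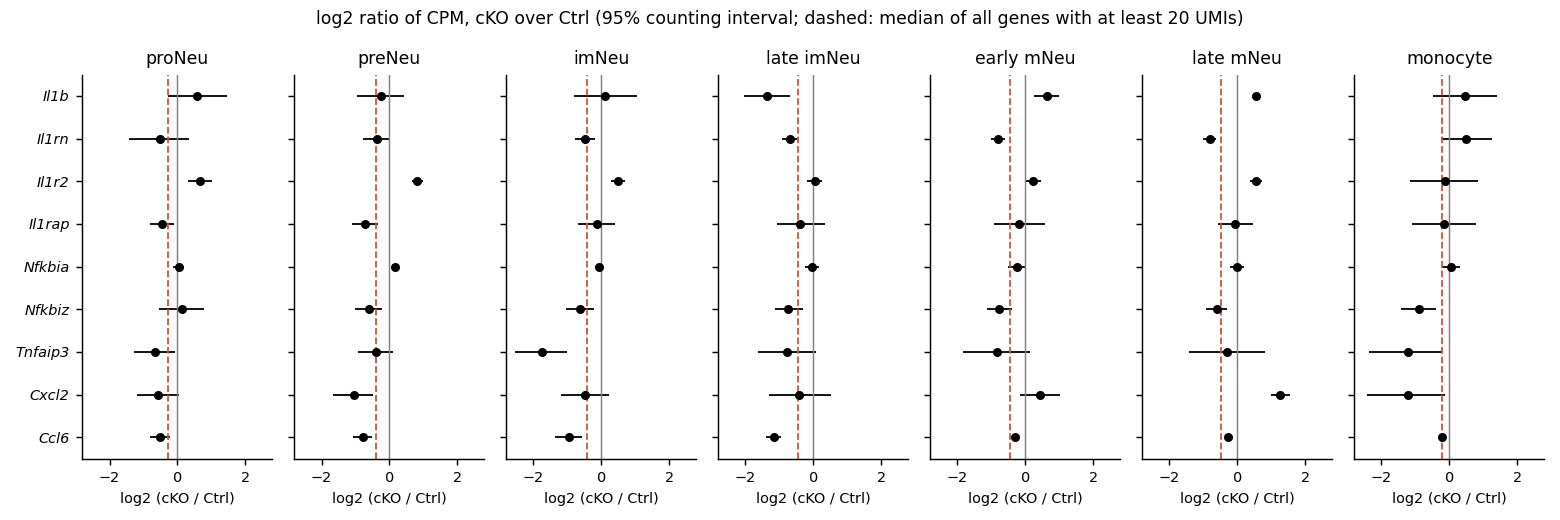
The log2 ratio of CPM of cKO over Ctrl (x axis) for each gene (y axis) in 7 gates, with the 95% counting interval as a horizontal bar, a solid line at 0 and a dashed line at the median of all genes. In late mNeu Cxcl2 lies farthest to the right at 1.26, with Il1b and Il1r2 near 0.55, and Il1rn farthest to the left at -0.82.

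Of the members, Cxcl2 differed most in late mNeu. It had 138 UMIs in late mNeu of Ctrl and 496 in those of cKO, a log2 ratio of 1.26 (0.98 to 1.54), which exceeded that of 99.0% of genes. In preNeu and monocytes its ratio ran the other way, at -1.06 (-1.66 to -0.47) in preNeu, on 75 and 37 UMIs, and -1.22 (-2.42 to -0.14) in monocytes, on 29 and 10 UMIs. Thinning turned the preNeu value to 0.14, and without the shared barcodes the monocytes held 8.83 and 0.780 CPM, the latter under the level of 3 UMIs. The tenth of late mNeu richest in Cxcl2 carried 100% of its UMIs in Ctrl and 94.96% in cKO, and 100% in both after thinning. Few cells had a Cxcl2 UMI, so such shares are high in either library. Without the barcodes shared by the libraries the late mNeu ratio of Cxcl2 was 1.03.

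Il1b had a log2 ratio of 0.54 (0.45 to 0.64) in late mNeu and 0.62 (0.26 to 0.998) in early mNeu, where 83 UMIs in Ctrl stood against 268 in cKO. In late imNeu, where secondary-granule RNA was still high, the ratio was -1.35 (-2.03 to -0.68), on 40 and 38 UMIs. Relative to the median gene these were 1.01, 1.07 and -0.89. Monocyte markers, a list of 9 genes including Ccr2 and Csf1r, took 1.83 of every 10000 UMIs in late mNeu of Ctrl and 1.01 in cKO, and the monocyte gate itself held 4.95 and 6.80 CPM of Il1b. Erythroblast markers took 7.13 and 0.524 and cell cycle markers 2.77 and 0.850 of every 10000 UMIs, and their part in the ratios was not tested. In cells with at least 2000 UMIs Il1b had 300 CPM in Ctrl and 669 CPM in cKO, a log2 ratio of 1.16, and the early mNeu ratio was 2.21. Thinned cells gave a lower late mNeu ratio of 0.31 and the mean of per-cell proportions one of 0.34.

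Late mNeu were then divided by the share of their UMIs from mature markers, since the libraries filled this range differently. Retnlg had the highest CPM of these markers in late mNeu, at 30308 in Ctrl and 37359 in cKO. A higher share need not mean a later stage, and an equal share in both libraries need not mean an equal stage. Of Ctrl late mNeu 12.7% had 100 to 200 marker UMIs per 10000 and 17.7% had at least 600, while of cKO late mNeu 4.91% and 33.4% did. Median depth rose over these bins too, from 1516 to 2791 UMIs per cell in Ctrl and from 2671 to 6246 in cKO. The part of depth in the values below was not tested. Il1b fell with rising marker share in Ctrl, from 1219 CPM in the lowest bin through 1026, 465 and 198 to 96.4 CPM in the highest. In cKO it was 867, 2182, 1061, 542 and 399 CPM. It was thus higher in cKO in 4 of 5 bins, with log2 ratios from 1.09 to 2.05, and lower in the lowest bin, at -0.49 (-0.77 to -0.22), which held 36 cKO cells and where the median of all genes was -0.76. With both libraries weighted to the same bins, though not to the same depth, the log2 ratio was 1.01, in place of 0.54. By point values Cxcl2 was higher in cKO in 5 of 5 bins, with a weighted log2 ratio of 1.43, and Il1r2 in 4 of 5, at 0.58, though the interval of Cxcl2 held 0 in the lowest bin (-0.90 to 1.26) and that of Il1r2 in the highest (-0.06 to 0.67). Il1rn and Ccl6 were lower by CPM in cKO in all 5 bins, with weighted ratios of -0.88 and -0.34. Il1rn also lay below the median of all genes in each bin. Ccl6 lay above it in the bins from 400 to 600 (-0.23 against -0.28) and from 600 on (-0.15 against -0.22), and below it in the others. Nfkbiz had a weighted ratio of -0.57 and intervals that held 0 in the bins from 100 to 200, from 200 to 300 and from 600 on.

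**Figure D3:**
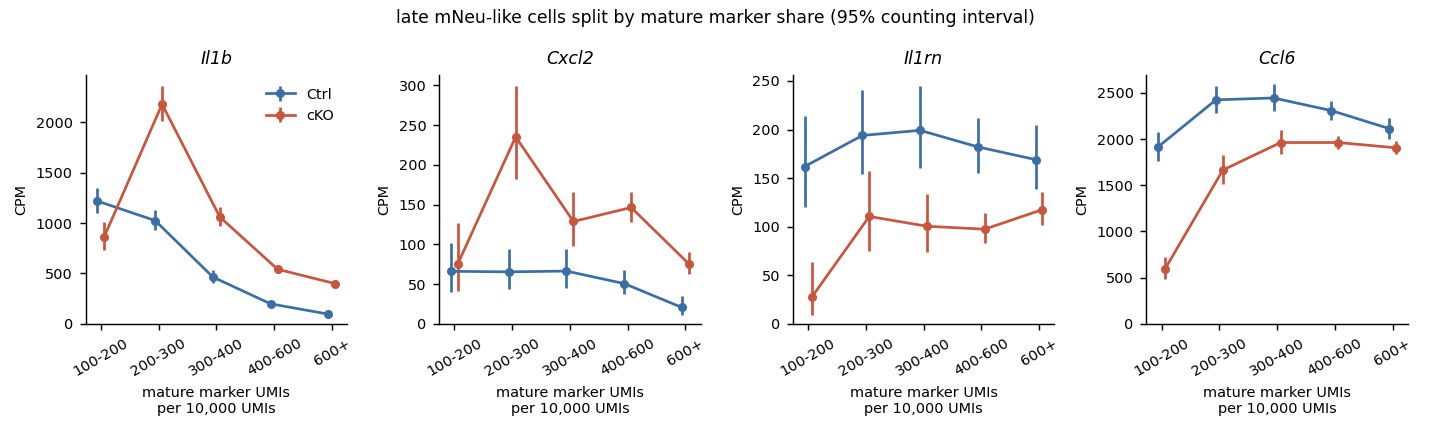
CPM (y axis) of Il1b, Cxcl2, Il1rn and Ccl6 in late mNeu split by the number of mature marker UMIs per 10000 UMIs of the cell (x axis), for Ctrl and cKO, with 95% counting intervals. Il1b falls towards the right in Ctrl from 1219 to 96.4 CPM and peaks in cKO at 2182 CPM in the 200 to 300 bin. Il1rn and Ccl6 of cKO lie under those of Ctrl throughout in CPM, which takes no account of the median of all genes.

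Il1rn was lower in cKO from imNeu on. Its log2 ratio was -0.49 (-0.79 to -0.18) in imNeu, -0.70 (-0.93 to -0.47) in late imNeu, -0.81 (-1.02 to -0.60) in early mNeu and -0.82 (-1.01 to -0.63) in late mNeu, while in monocytes it was 0.50 (-0.25 to 1.26). After subtraction of the median of all genes these 4 neutrophil values were -0.07, -0.24, -0.37 and -0.35. In thinned cells 15.8% (13.7 to 18.1) of late mNeu in Ctrl and 10.96% (8.77 to 13.5) in cKO had an Il1rn UMI.

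Il1r2 was higher in cKO at every neutrophil stage by its point value. The log2 ratio was 0.67 (0.32 to 1.03) in proNeu, 0.82 (0.66 to 0.99) in preNeu, 0.50 (0.30 to 0.70) in imNeu, 0.04 (-0.18 to 0.27) in late imNeu, 0.22 (-0.01 to 0.45) in early mNeu and 0.55 (0.36 to 0.74) in late mNeu, so that the intervals of late imNeu and early mNeu held 0. In preNeu, on 473 and 858 UMIs, this value exceeded that of 99.0% of genes, and it was 0.77 without the shared barcodes. In thinned cells 3.57% (2.62 to 4.73) of preNeu in Ctrl and 5.28% (3.86 to 7.02) in cKO had an Il1r2 UMI. Of late mNeu 12.4% (10.5 to 14.6) and 16.5% (13.9 to 19.4) did. The intervals of these shares overlapped between the libraries in every neutrophil gate.

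Il1r2 starts 47.8 kb after the end of Map4k4 on chromosome 1 (39900913 to 40026310), the deleted gene, on the same strand, and a row of IL-1 receptor family genes follows. In preNeu the log2 ratio was -0.11 (-0.66 to 0.44) for Il1rl2, -0.09 (-0.43 to 0.24) for Il18r1 and -0.55 (-0.68 to -0.42) for Il18rap. In late mNeu it was -0.47 (-1.01 to 0.08) for Il18r1 and -0.61 (-0.76 to -0.46) for Il18rap, which relative to the all-gene median was 0.00 and -0.14. Il1rl1, the IL-33 receptor, had -1.09 (-2.17 to -0.09) in preNeu on 27 and 13 UMIs and -1.51 (-2.78 to -0.34) in late mNeu on 19 and 10. On the other side of Map4k4, Rnf149, 324 kb away, had -0.66 (-1.07 to -0.25) in preNeu and -0.39 (-0.55 to -0.23) in late mNeu. Creg2, Rfx8 and Il1r1 had too few UMIs in these gates. In preNeu, imNeu and late mNeu no other gene of the row had an interval above 0, whereas Il1r1 had one in HSC/MPP, at 0.66 (0.18 to 1.12), and Rnf149 in monocytes, at 0.42 (0.12 to 0.71). Map4k4 itself had 0.51 (0.26 to 0.77) in proNeu, on 216 and 304 UMIs, and between -0.55 and -0.29 from preNeu to late mNeu. Relative to the median gene Map4k4 was at 0.79 in proNeu and at -0.05, -0.09, -0.08, -0.06 and 0.17 in the gates from preNeu to late mNeu.

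**Figure D4:**
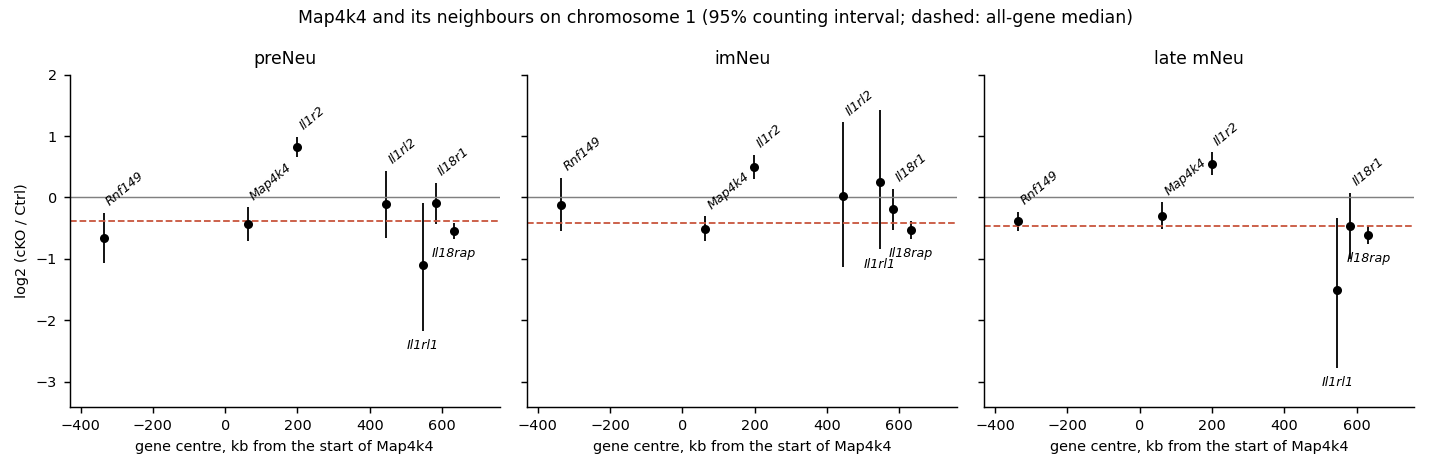
The log2 ratio of cKO over Ctrl (y axis) for genes around Map4k4 with at least 20 UMIs, by the distance of the gene's centre from the start of Map4k4 (x axis, kb), in preNeu, imNeu and late mNeu, with 95% counting intervals and the all-gene median as a dashed line. Il1r2 lies above 0 in each panel, at 0.82, 0.50 and 0.55, while Map4k4 and Il18rap lie below 0.

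Among the NF-kB regulators, Nfkbia was nearly level by CPM, with log2 ratios between -0.25 in early mNeu and 0.16 in preNeu over the neutrophil gates, which relative to the median gene were 0.19 and 0.55. Nfkbiz was lower in cKO in each gate from preNeu to late mNeu, between -0.77 and -0.60, and in monocytes it was -0.90 (-1.42 to -0.40), on 112 and 48 UMIs. Relative to the median gene the neutrophil values of Nfkbiz were between -0.14 and -0.32, and each of these intervals held the median of its gate. The interval of Nfkbiz in monocytes lay below the median of that gate. Tnfaip3 was at -0.66 (-1.27 to -0.07) in proNeu, which turned to 0.08 without the shared barcodes. It was lower in imNeu, at -1.75 (-2.54 to -1.01) on 53 and 22 UMIs, and in monocytes, at -1.22 (-2.36 to -0.19) on 32 and 11 UMIs. Without the shared barcodes the monocytes held 8.41 and 0.780 CPM of Tnfaip3, the latter under the level of 3 UMIs. Il1rap was lower by CPM in proNeu, at -0.46 (-0.80 to -0.11), and preNeu, at -0.72 (-1.11 to -0.35), and held 0 in its interval from imNeu on. Relative to the median gene the proNeu and preNeu values were -0.18 and -0.34, and both intervals held the median of their gate.

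Ccl6 was lower by CPM in each of the 9 gates, though relative to the median gene it was higher in early mNeu (0.14) and late mNeu (0.19). The log2 ratio was -0.28 (-0.33 to -0.23) in late mNeu, -0.31 (-0.41 to -0.21) in early mNeu and -0.23 (-0.33 to -0.13) in monocytes, where the gene was abundant, and -1.89 (-2.94 to -0.99) in HSC/MPP and -1.23 (-1.998 to -0.54) in MEP, where it is read as background. Without the shared barcodes HSC/MPP held 25.6 and 1.68 CPM, the latter under the level of 3 UMIs.

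Cells with and without Il1b were compared within late mNeu after thinning. In cKO 15.8% (11.7 to 20.7) of the 272 cells with an Il1b UMI also had Nfkbia, against 6.90% (4.74 to 9.66) of the 449 without. In Ctrl these shares were 13.7% (9.99 to 18.1) and 10.0% (7.98 to 12.4), with overlapping intervals. Ccl6 was found in 76.5% (71.0 to 81.4) and 65.9% (61.3 to 70.3) of the same cKO cells, and in 85.0% and 79.1% of the Ctrl cells, where the intervals overlapped. Il1rap was found in 5.33% (3.08 to 8.52) of Ctrl cells with Il1b and 1.56% (0.809 to 2.71) of those without, while in cKO the shares of 2.57% (1.04 to 5.23) and 1.56% (0.629 to 3.19) overlapped. Il1rn shares differed by less than 1 percentage point in both libraries, at 16.3% and 15.6% in Ctrl and 11.03% and 10.9% in cKO. For Cxcl2 the shares were 5.67% (3.34 to 8.92) and 3.25% (2.11 to 4.76) in Ctrl. In cKO they were 8.09% (5.14 to 11.99) and 5.79% (3.82 to 8.37), so the intervals overlapped in both libraries. Those of Il1r2, Nfkbiz and Tnfaip3 overlapped in both libraries too. No member thus differed beyond its intervals in both libraries, and how many of all genes differ so between these cells was not counted. Il1b also varied with marker share within late mNeu, and the part of that in these shares was not tested. Cells of a library share their droplets' free RNA and are not replicates.

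Each gene's pattern over 25 profiles, the gates with at least 50 cells in Ctrl (16) and cKO (9), was compared with that of 4855 genes by Pearson correlation of log2(CPM + 5), as a description over profiles that share libraries. The closest genes were Hcar2 (0.94), Cstdc4 (0.90) and Gm16556 (0.89) to Il1b, Abtb1 (0.98), Adam8 (0.96) and A530064D06Rik (0.96) to Il1rn, and C5ar1 (0.98), Dgat1 (0.97) and Lrg1 (0.97) to Il1r2. Csf3r, a gate marker, was closest to Il1rap (0.86), followed by Scnn1a and Pbx2, and second to Cxcl2 (0.91), between Sfxn5 and Arg2. Il16, Ppp3ca and Ppp1r18 (each 0.88) were closest to Nfkbia, Dusp6 (0.95), Tmem71 and Sh2d3c were closest to Nfkbiz, Aff4 (0.89), Zc3h7a and Clec2d to Tnfaip3, and Pla2g7 (0.97), Il13ra1 and Lilra6 to Ccl6. Between members, the highest correlations were those of Il1rn with Il1r2 and of Il1b with Cxcl2, both 0.88, and the lowest was -0.33, of Tnfaip3 with Cxcl2.

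Other genes of the pathway were taken from lists of ligands, receptors, adaptors, NF-kB subunits, feedback inhibitors, inflammasome components and targets. In late mNeu 59 of the 84 listed genes in the files had at least 20 UMIs, 2 were past 2-fold higher in cKO (Cxcr1 and Cd14), against 1.49% of all genes, and 5 lower (Il1rl1, Nfkb2, Nfkbie, Ptgs2 and Ccr2), against 20.4%, with a median log2 ratio of -0.27 against -0.47 for all genes. In monocytes the median over 63 listed genes was -0.08 against -0.21 for all genes, and among those past 2-fold were Ier3, which was higher, and Cxcl10 and Tnip3, which were lower.

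Of the ligands, Il1f9, the older symbol of the IL-36γ gene, had 398 CPM in late mNeu of Ctrl and 489 in cKO, a log2 ratio of 0.30 (0.19 to 0.40). Il18rap, a subunit of the IL-18 receptor, had 275 and 180 CPM. Cxcr2, the receptor of Cxcl2 and a marker used for the mature gates, had 1355 and 1533 CPM, and Ccr1, a receptor of Ccl6, 418 and 457 CPM. Cxcr1 had 23 and 198 UMIs, a log2 ratio of 2.52 (1.89 to 3.21), the highest of the listed genes in this gate. Cd14, the co-receptor for lipopolysaccharide, had 48 and 216 UMIs, at 1.58 (1.13 to 2.07).

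Of 13 adaptors and kinases downstream of the receptor, none was past 2-fold in late mNeu, and the median was -0.30. Myd88, the shared adaptor, had 141 CPM in Ctrl and 164 in cKO, while Irak2 had 56.5 and 28.4 CPM, a log2 ratio of -0.99 (-1.35 to -0.64). Tab2 had 159 and 109 CPM. Irak4, Peli1 and Ube2n lay between -0.38 and -0.06. Among 11 IKK and NF-kB subunits the median was -0.48, near that of all genes. Nfkb1 had 97.3 and 69.2 CPM and Rela 78.0 and 64.6 CPM, while Bcl3, an atypical IκB protein, had 47.0 and 66.0 CPM, at 0.49 (0.18 to 0.80). Nfkbie was at -1.67 (-2.59 to -0.80) and Nfkb2 at -1.09 (-1.75 to -0.44).

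None of 9 feedback inhibitors with enough UMIs passed 2-fold in late mNeu, with a median of -0.26. Zfp36, which encodes an RNA-destabilising protein that acts on cytokine transcripts, had 796 and 664 CPM. Tax1bp1, Itch, Rnf11 and Cyld lay between -0.37 and -0.16. Of 5 inflammasome genes, Casp1, which cuts pro-IL-1β, had 24.1 and 38.1 CPM, at 0.66 (0.24 to 1.10), and Casp4 42.7 and 57.5 CPM, while Nlrp3, the sensor, had 105 and 60.2 CPM, at -0.81 (-1.06 to -0.56), and Gsdmd 110 and 72.1 CPM. Of the other NF-kB targets Tnfaip2 had 308 and 209 CPM, Ier3 56.9 and 74.5 CPM, and Birc3 53.2 and 59.0 CPM. Ptgs2, which encodes cyclooxygenase-2, had 22 and 8 UMIs, and Ccr2, a marker whose share the gate limits, 38 and 15. In monocytes Ccl9, a chemokine related to Ccl6, had 376 and 537 CPM, at 0.51 (0.41 to 0.61), Pycard 329 and 493 CPM, and Nfkb1 216 and 142 CPM. Ier3 was at 1.65 (0.99 to 2.35), Tnip3 at -1.85 (-3.87 to -0.25) and Cxcl10 at -1.21 (-2.10 to -0.38). The other listed genes with at least 50 CPM in monocytes lay between -0.97 (Map3k7) and 0.62 (Bcl3).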

How the data were processed

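Bone marrow cells of 1 Ctrl and 1 cKO sample were profiled with a 3′ droplet kit. The authors deposited UMI counts per gene and barcode from Cell Ranger 5.0.0 on GRCm38, and their later cell filters and doublet removal are not applied in these files. A cell was kept if it had between 200 and 9000 genes with a UMI and no more than 30% of UMIs from mitochondrial genes. Gates took cells by the share of UMIs from fixed marker lists, with at least 3 marker UMIs, and 204 Ctrl and 35 cKO cells in more than 1 gate were left out. No doublet caller was used. UMIs were summed per gate and library (Python 3.11.15, numpy 2.4.6, scipy 1.17.1, pandas 2.3.3), and CPM is per 1000000 UMIs of the gate. Ratios used genes with at least 20 UMIs in both libraries together. Thinning drew 1000 UMIs per cell. The members, lists and gate limits were chosen with earlier results of these data known. Named genes were the 9 members, Map4k4, listed genes with at least 50 CPM in late mNeu or monocytes or past 2-fold there, and the 3 genes most like each member. Poisson counts were simulated for late mNeu from a pooled profile of both libraries, over 8281 genes with 200 changed by 4-fold. In them 95.9% of intervals held the true ratio, and 98.5% of changed genes and 1.82% of unchanged genes passed 2-fold. The intervals assume such counts, so this checks the calculation only. It lacks the shift of all genes and the uneven spread over cells seen in the data. Alternatives varied the cell filters, gates, scaling, floor and depth. One listed gene is not reported here.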

Additional observations from a re-analysis of the deposited data

Results flagged for a closer look

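For 4 genes the counting interval of the log2 ratio of cKO over Ctrl lay above 0 in 1 gate and below 0 in another, and the difference between the gates was not tested. How many of all genes meet this rule was not counted, and the median of all genes itself differed between gates. Il1b was at 0.62 in early mNeu and -1.35 in late imNeu, or 1.07 and -0.89 relative to the median of all genes. Its late imNeu value stayed past 2-fold under 8 of 12 alternatives, among them those on the UMI floor, which could not change the ratio. Nfkbia was at 0.16 in preNeu and -0.25 in early mNeu, but at 0.55 and 0.19 relative to that median, above it in both. Cxcl2 was at 1.26 in late mNeu and -1.22 in monocytes, the latter on 29 and 10 UMIs, or 1.73 and -1.01 relative to the median. Map4k4, the targeted gene, was at 0.51 in proNeu and -0.55 in late imNeu, which relative to the median of all genes was 0.79 and -0.08.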

How the results depend on the processing

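Of 788 member log2 ratios under the alternatives, 672 stayed within the counting interval, 115 left it and 1 reversed a 2-fold value, Cxcl2 in preNeu, which was 0.14 after thinning. The sign changed in 79 of them, 18 under median-of-ratios scaling. In cells with at least 2000 UMIs Il1b was 2.21 in early and 1.16 in late mNeu, Cxcl2 1.84, and the 10% of Ctrl cells richest in Il1b held 61.6% of it. Stricter gates, which left no early mNeu, gave 1.01 for Il1b, 1.82 for Cxcl2 and -0.23 for Ccl6 in late mNeu, 3 listed genes past 2-fold in place of 7, and such Il1b shares of 50% in Ctrl and 38.7% in cKO. Median-of-ratios scaling gave 1.07 for Il1b in early mNeu, 1.21 for Il1r2 in preNeu and, in late mNeu, 1.01 for Il1b, -0.35 for Il1rn, 1.02 for Il1r2, 1.73 for Cxcl2 and 0.19 for Ccl6. Totals without the top 50 genes gave 0.80 for Il1b, -0.56 for Il1rn, 0.80 for Il1r2 and -0.027 for Ccl6. Per-cell proportions gave 0.34 for Il1b, 0.54 for Il1r2 in preNeu and -0.34 for Ccl6. Thinning gave 0.31 for Il1b, -0.60 for Il1rn, 0.66 for Il1r2 in preNeu, -0.37 for Ccl6, 5 member values past 2-fold in place of 10, and Il1b shares of 63.9% and 55.1%. With no floor 18 listed genes passed 2-fold. Weighting to equal marker bins, chosen after seeing the data like the removal of shared barcodes, gave 1.01 for Il1b and -0.34 for Ccl6. The causes of these shifts were not tested. Cxcl2 in late mNeu stayed past 2-fold under all 12 alternatives counted for it, though those on the UMI floor could not change its ratio. No paired analysis was possible because each group has 1 library, and for the same reason no library could be left out.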
